A study of Mus musculus with 9 samples.

Results

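The genes described here are 55 that encode core parts of the mouse spliceosome together with Aar2 and Nkap, out of 37310 genes with a count in each file. They were picked by symbol, and all 55 matched an Ensembl gene and passed the filter on low counts, which kept 16224 genes for testing. RNA was sequenced from 9 libraries of E14 mouse embryonic stem cells in 3 groups of 3. The labelled KO libraries came from Zbtb11 lox/lox cells with ERt2-Cre at Rosa26, given 250 nM 4-hydroxytamoxifen (4OHT), the ligand that activates this Cre, for 72 h. The 4OHT control was Zbtb11 WT/WT with a wild-type Rosa26 locus and had the same 4OHT dose, and the ethanol control was the Zbtb11 lox/lox ERt2-Cre line given the carrier ethanol. The 4OHT control therefore differed from the ethanol control in both line and drug, and these cannot be told apart. The labels do not say whether the replicates were separate cultures, so p-values here measure the spread between libraries.

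Introns are removed by the spliceosome, which is built on each intron from small nuclear ribonucleoproteins (snRNPs), each a small nuclear RNA with its proteins. U1 binds the 5′ splice site and U2 the branch site, the U4/U6.U5 tri-snRNP then joins, and the Prp19 complex and a series of RNA helicases drive activation, catalysis and release. Aar2 is a chaperone that holds Prpf8 during assembly of the U5 snRNP, and in yeast it keeps the helicase counterpart of Snrnp200 off Prp8 until it leaves. Nkap is a nuclear protein that binds RNA and spliceosomes and also acts in NF-kappaB signalling and transcription.

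Gene counts summed to between 16909139 and 23544893 per library. Levels are given as CPM, read counts brought to a common library size, after scaling by trimmed mean of M values (TMM), and a gene is called where the Benjamini-Hochberg adjusted p of edgeR's quasi-likelihood test over all 16224 genes is under 0.05. Zbtb11 itself, the targeted gene, had 369, 386 and 376 CPM in labelled KO, 364, 378 and 361 CPM in the 4OHT control and 348, 359 and 360 CPM in the ethanol control. Its gene count was thus not lower in labelled KO, with a log2 fold change of 0.09 against the ethanol control (edgeR adjusted p = 0.17), which was called under a replicate block (0.032) and under scaling by library totals (0.013). A count over a whole gene does not show whether part of it was deleted, so the group is called by its label throughout. Summed embryonic stem cell markers stood at 3762 to 4076 CPM in labelled KO, 4085 to 4665 CPM in the 4OHT control and 3927 to 4122 CPM in the ethanol control. Within this sum Esrrb was called lower against the ethanol control (log2 fold change -0.24, edgeR adjusted p = 0.031) and the 4OHT control (-0.26, 0.012). Pou5f1, Zfp42 and Dppa5a were also called lower against the 4OHT control. Other markers of this list went the other way in part. Nanog had a log2 fold change of 0.40 against the 4OHT control (edgeR adjusted p = 0.068, under the block 3.0e-09). Klf4 had 0.25 against the ethanol control (0.070, under the block 1.8e-06) and -0.11 against the 4OHT control (0.37, under the block 0.0077). Tdgf1 had -0.17 against the 4OHT control (0.061, under the block 0.00011), and Sox2 had 0.02 there (0.80). The 4 endoderm markers summed to 7.75 to 9.51 CPM in labelled KO, 3.64 to 4.85 CPM in the 4OHT control and 3.5 to 5.64 CPM in the ethanol control. Of them Gata4, Gata6 and Sox17 were called higher against both controls and Foxa2 had 1 to 6 reads per library, and their part in the results below was not tested. The 3 trophoblast markers summed to 2.39 to 4.37 CPM in labelled KO, 1.49 to 2.28 CPM in the 4OHT control and 1.73 to 2.32 CPM in the ethanol control. None of the 3 was called against the ethanol control without a block (Hand1 edgeR adjusted p = 0.13, under the block 0.0048). Against the 4OHT control Hand1 (0.017) and Elf5 (0.028) were called higher, and Cdx2 had a log2 fold change of -0.11 (0.84). The 5 fibroblast markers summed to 18.4 to 18.6 CPM in labelled KO, 13.9 to 14.7 CPM in the 4OHT control and 15.3 to 18.6 CPM in the ethanol control, with Postn at 0 to 2 reads per library. That sum joins genes of opposite direction against the 4OHT control. Col1a1 (log2 fold change 1.01, edgeR adjusted p = 8.3e-06) and Col1a2 (2.14, 6.2e-06) were called higher there and Thy1 (-0.65, 0.00045) lower. The part of these markers in the results was not tested either. In bulk RNA, fewer cells of a type and less RNA per cell cannot be told apart.

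The promoters of 4 genes on which the results turn are printed first, each as 250 bases before and 50 bases after the annotated transcript start, from RefSeq on GRCm38.p6, plus strand of the genome. They are Aar2 at chr2:156547326-156547625, Nkap at chrX:37126513-37126812, Snrnp200 at chr2:127208136-127208435 and Snrpd3 at chr10:75517792-75518091. Aar2 and Nkap had the lowest levels in labelled KO, Snrnp200 had the greatest positive log2 fold change of the other 53 genes and Snrpd3 the greatest negative one. Capitals mark CGGAAG or its reverse complement CTTCCG, a core of the sites that ETS-family factors bind.
Aar2: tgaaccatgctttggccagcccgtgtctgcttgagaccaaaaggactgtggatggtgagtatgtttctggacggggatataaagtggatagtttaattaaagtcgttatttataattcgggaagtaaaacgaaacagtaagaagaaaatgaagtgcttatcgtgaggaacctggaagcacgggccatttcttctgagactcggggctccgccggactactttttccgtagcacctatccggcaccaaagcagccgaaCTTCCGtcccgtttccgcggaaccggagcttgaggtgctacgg
Nkap: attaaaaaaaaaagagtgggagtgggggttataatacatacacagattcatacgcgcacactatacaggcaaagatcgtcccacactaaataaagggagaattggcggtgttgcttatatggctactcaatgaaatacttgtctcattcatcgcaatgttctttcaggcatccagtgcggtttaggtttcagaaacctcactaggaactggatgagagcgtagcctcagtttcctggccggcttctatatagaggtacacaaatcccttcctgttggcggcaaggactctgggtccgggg
Snrnp200: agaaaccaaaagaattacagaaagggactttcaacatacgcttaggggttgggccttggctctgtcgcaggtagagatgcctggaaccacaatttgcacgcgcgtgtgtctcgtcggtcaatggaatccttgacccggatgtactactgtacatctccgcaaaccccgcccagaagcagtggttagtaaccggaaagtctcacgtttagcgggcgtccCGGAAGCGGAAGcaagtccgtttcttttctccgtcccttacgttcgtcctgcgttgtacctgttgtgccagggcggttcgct
Snrpd3: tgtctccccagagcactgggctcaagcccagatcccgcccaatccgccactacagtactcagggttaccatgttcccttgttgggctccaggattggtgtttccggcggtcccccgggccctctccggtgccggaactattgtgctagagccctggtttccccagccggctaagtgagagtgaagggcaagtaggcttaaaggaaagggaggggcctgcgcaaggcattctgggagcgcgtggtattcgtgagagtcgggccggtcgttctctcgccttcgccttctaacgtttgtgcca
The motif was chosen after these sequences were seen. It stands 8 bases after the start in Aar2, on the reverse strand, and at 32 and 26 bases before the start in Snrnp200, while these letters are not in the Nkap or Snrpd3 window. Of the 43 members with an entry in the RefSeq promoter table, 29 held CGGAAG on either strand (67.4%), against 5075 of the 27025 genes in the table (18.8%). That background was not limited to the 16224 genes tested here, whereas every member passed the filter on low counts, so these shares do not compare like with like. Another motif searched, labelled NRF1, was held by 1 of the 43 members (2.33%) and by 290 of the 27025 genes (1.07%). Neither difference was tested. A match to either motif is a description of letters and not a site of binding.

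Aar2 and Nkap were the members with the lowest levels in labelled KO, at a small fraction of either control. They were chosen for this difference, so their values against the controls are a description with no test. Aar2 had 1.91, 3.06 and 1.14 CPM in labelled KO, 44.2, 43.5 and 42.5 CPM in the 4OHT control and 38.0, 40.6 and 39.7 CPM in the ethanol control. The 3 labelled KO libraries lay far below all 6 control libraries and did not overlap them. The counts behind these values were 45, 63 and 22 reads in labelled KO, 931, 740 and 885 in the 4OHT control and 835, 929 and 665 in the ethanol control. The mean of 2.04 ± 0.967 CPM in labelled KO was 4.70% of the 43.4 ± 0.827 CPM in the 4OHT control and 5.17% of the 39.5 ± 1.34 CPM in the ethanol control (SD, n = 3 each). The log2 fold change was -4.40 (SE 0.17) against the 4OHT control and -4.26 (SE 0.17) against the ethanol control.

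Nkap had 2.16, 2.43 and 1.72 CPM in labelled KO, 28.2, 32.0 and 31.5 CPM in the 4OHT control and 26.5, 30.4 and 28.3 CPM in the ethanol control. Here too the labelled KO libraries stood apart below both controls, and the controls overlapped each other. Its counts were 51, 50 and 33 reads in labelled KO, 595, 545 and 655 in the 4OHT control and 583, 696 and 473 in the ethanol control. The labelled KO mean of 2.10 ± 0.362 CPM was 6.88% of the 30.6 ± 2.05 CPM in the 4OHT control and 7.41% of the 28.4 ± 1.96 CPM in the ethanol control (SD, n = 3 each), with log2 fold changes of -3.85 (SE 0.12) and -3.75 (SE 0.12). Between the 4OHT control and the ethanol control, which the choice did not use, the log2 difference was 0.14 for Aar2 (SE 0.12, edgeR adjusted p = 0.48) and 0.10 for Nkap (SE 0.09, edgeR adjusted p = 0.46). Neither was called there.

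The protein-coding genes next to Aar2 and Nkap in RefSeq order had no difference of the size seen in Aar2 and Nkap. Beside Aar2, Epb41l1 averaged 31.0 CPM in labelled KO, 36.7 CPM in the 4OHT control and 33.0 CPM in the ethanol control, and Dlgap4 averaged 51.7 CPM in labelled KO, 55.3 CPM in the 4OHT control and 53.2 CPM in the ethanol control. Beside Nkap, Upf3b averaged 31.8 CPM in labelled KO, 31.7 CPM in the 4OHT control and 30.3 CPM in the ethanol control. Ndufa1 averaged 21.5 CPM in labelled KO, 20.9 CPM in the 4OHT control and 20.6 CPM in the ethanol control. None of these neighbours was called against the ethanol control, with log2 fold changes between -0.09 and 0.07 and edgeR adjusted p between 0.58 and 0.67. Against the 4OHT control Epb41l1 had a log2 fold change of -0.24 (edgeR adjusted p = 0.10) and was called lower with a replicate block (0.0048). Exons of Nkap overlap those of Akap14 on the opposite strand by 49 bases, and Akap14 had 0 to 5 reads per library. No 50-base stretch of Aar2 or Nkap exons recurs in another gene.

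**Figure D1:**
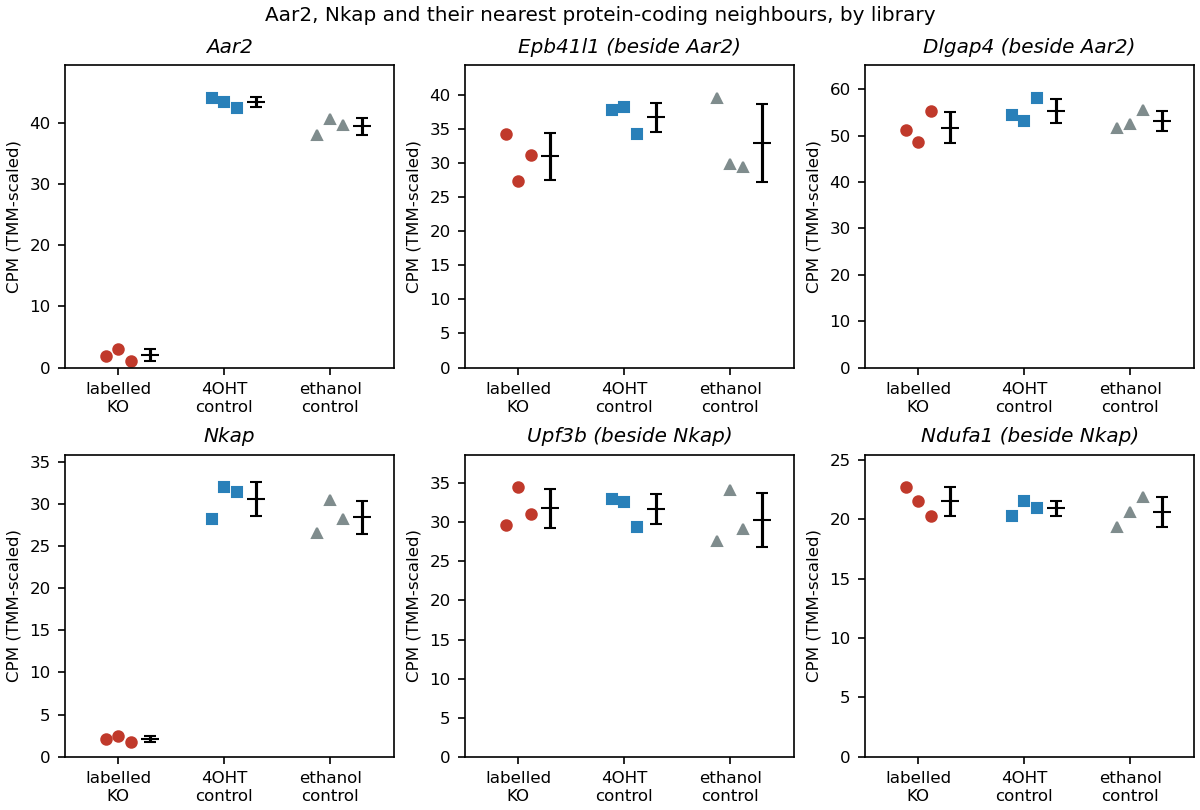
TMM-scaled CPM of Aar2, Nkap and their neighbouring protein-coding genes in each library, with the mean and SD of 3 libraries per group (black). Aar2 sits at 1.14 to 3.06 CPM and Nkap at 1.72 to 2.43 CPM in labelled KO, below every control library, while each neighbour overlaps the ethanol control.

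Most of the other 53 genes moved little. Against the ethanol control their log2 fold changes ran between -0.63 and 0.63 with a median of 0.01, which is also the median over all genes tested, and 29 of the 53 were positive. Of the 53, 6 rose and 9 fell, or 28.3%, while 27.2% of all genes tested were called, 13.0% higher and 14.2% lower. Against the 4OHT control 14 rose and 7 fell, or 39.6%, beside 38.9% of all genes, 19.1% higher and 19.8% lower. These shares, from the fit without a replicate block, lie close to the background. With the block the share of the list lay above it, as given below. Both comparisons use the same labelled KO libraries and are not independent.

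The direction split depended on the scaling. Without Aar2 and Nkap, 6 of 53 rose and 9 fell against the ethanol control. When libraries were scaled by their totals alone, 13 rose and 6 fell. That scaling also moved the calls over all genes to 3038 higher (18.7%) and 1527 lower (9.41%). Against the 4OHT control 14 rose and 7 fell, and 24 rose and 5 fell with library totals. Over all genes library totals gave 4215 higher (26.0%) and 2328 lower (14.3%) there. With library totals the share of the other 53 called was 35.8% against the ethanol control and 54.7% against the 4OHT control, beside 28.1% and 40.3% of all genes in those comparisons. Libraries of the same replicate number deviated together, and the labels do not say what they shared. A block for the number gave 28 calls of 53 against the ethanol control (13 higher, 15 lower). Against the 4OHT control the block gave 33 (19 higher, 14 lower). Of the other 53, 52.8% were then called against the ethanol control, beside 6936 or 42.8% of all genes (20.4% higher, 22.3% lower), and 62.3% against the 4OHT control, beside 8337 or 51.4% of all genes (25.5% higher, 25.9% lower). The share of the list lay above the background under both settings, a difference that was not tested. Counts by role below come from the fit without the block.

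**Figure D2:**
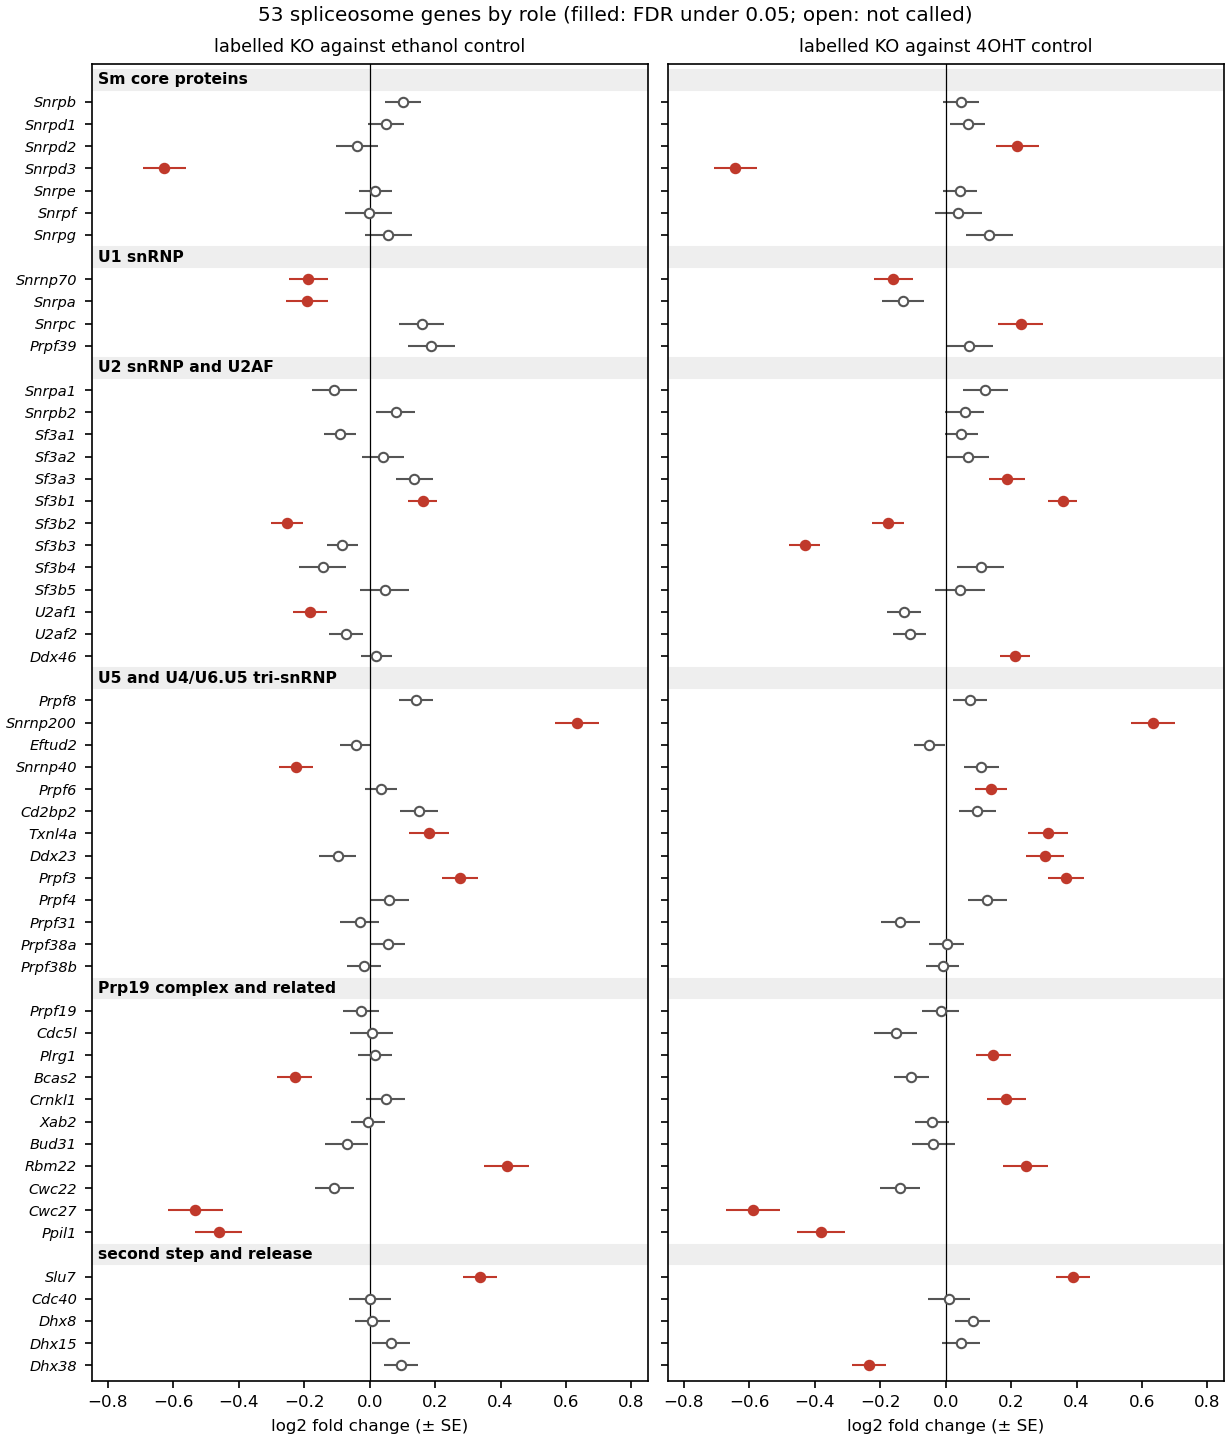
Log2 fold change with its standard error for 53 spliceosome genes by role, labelled KO against the ethanol control (left) and against the 4OHT control (right). Filled points are called and open points are not, and Snrpd3 and Snrnp200 lie farthest from 0 in both panels.

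Among the Sm proteins, which form the ring shared by the U1, U2, U4 and U5 snRNPs, 1 of 7 genes, Snrpd3, fell against the ethanol control, and against the 4OHT control Snrpd3 fell and Snrpd2 rose. The shares called were 14.3% and 28.6%, beside 27.2% and 38.9% of all genes. Snrpd3 had 58.9, 64.6 and 60.2 CPM in labelled KO. It had 93.5, 104 and 90.1 CPM in the 4OHT control and 88.6, 99.8 and 95.4 CPM in the ethanol control. Every labelled KO library was below every control library. The log2 fold change was -0.64 against the 4OHT control (SE 0.07, edgeR adjusted p = 1.5e-06) and -0.63 against the ethanol control (SE 0.07, edgeR adjusted p = 4e-06). The other 6 Sm genes had log2 fold changes between -0.04 and 0.10 against the ethanol control and none was called, although Snrpb was called with the replicate block (edgeR adjusted p = 0.036). Snrpd3 exons share 232 bases with Gucd1 on the opposite strand, and without a stated strand setting reads there cannot be assigned.

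Of the 4 U1 genes, 2 fell against the ethanol control, and against the 4OHT control 1 fell and 1, Snrpc, rose. That was 50% in each comparison, in a list of 4, beside 27.2% and 38.9% of all genes. Snrnp70, which contacts stem loop 1 of U1 RNA, had 212, 231 and 247 CPM in labelled KO, 250, 264 and 258 CPM in the 4OHT control and 245, 270 and 270 CPM in the ethanol control. The labelled KO libraries overlapped the ethanol control. Its log2 fold change was -0.19 against the ethanol control (edgeR adjusted p = 0.031) and -0.16 against the 4OHT control (edgeR adjusted p = 0.047), both at the edge of the threshold. The first call was lost without ethanol control replicate 2 (0.12) or 3 (0.10), without labelled KO replicate 1 (0.13) and with library totals (0.12). The other held in 6 of 16 alternatives and was lost without any library except ethanol control replicate 1 and labelled KO replicate 3, at a log2 fold change of -0.11 without labelled KO replicate 1 (edgeR adjusted p = 0.21). That call was also lost with library totals (0.27), a filter of 1 CPM (0.063) and a fit of the groups compared alone (0.058). Snrpa, the U1 A protein, fell by 0.19 on the log2 scale against the ethanol control (edgeR adjusted p = 0.038) and kept that call in 11 of 16 alternatives, and against the 4OHT control it had -0.13 (edgeR adjusted p = 0.13, under the block 0.010).

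Among the 13 genes of the U2 snRNP and the U2AF dimer, 1 rose and 2 fell against the ethanol control (23.1%, beside 27.2% of all genes). Against the 4OHT control 3 rose and 2 fell (38.5%, beside 38.9% of all genes). The SF3b subunits that clamp the branch site were among both the higher and the lower genes. Sf3b1, the scaffold of SF3b, had 601, 607 and 612 CPM in labelled KO, 470, 461 and 489 CPM in the 4OHT control and 535, 541 and 552 CPM in the ethanol control. All labelled KO libraries were above both controls, and the 4OHT control was below the ethanol control. It rose by 0.36 on the log2 scale against the 4OHT control (edgeR adjusted p = 1.1e-05) and by 0.16 against the ethanol control (edgeR adjusted p = 0.012, or 0.057 without ethanol control replicate 1 and 0.053 without replicate 2). Sf3b2, another SF3b subunit, had 339, 357 and 346 CPM in labelled KO, 379, 402 and 397 CPM in the 4OHT control and 397, 428 and 416 CPM in the ethanol control. It lay below both controls without overlap and fell by 0.25 on the log2 scale against the ethanol control (edgeR adjusted p = 0.0012) and by 0.18 against the 4OHT control (edgeR adjusted p = 0.0089, or a log2 fold change of -0.09 and 0.11 with library totals). U2af1, the U2AF subunit that reads the 3′ splice site, fell by 0.18 against the ethanol control (edgeR adjusted p = 0.016) and had -0.13 against the 4OHT control (0.064, under the block 0.0049), and 21.7% of its 50-base stretches recur in other genes.

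Of the 13 genes of the U5 snRNP and tri-snRNP, 3 rose and 1 fell against the ethanol control (30.8%, beside 27.2% of all genes). Against the 4OHT control 5 rose and none fell (38.5%, beside 38.9% of all genes). These shares lie near the background. Snrnp200, the helicase that unwinds U4 from U6 and a partner of Prpf8, had 919, 766 and 841 CPM in labelled KO, 591, 504 and 532 CPM in the 4OHT control and 561, 534 and 533 CPM in the ethanol control. The lowest labelled KO library was above the highest control library. Its means were 842 ± 76.4 CPM in labelled KO, 543 ± 44.5 CPM in the 4OHT control and 542 ± 15.7 CPM in the ethanol control (SD, n = 3 each), and the log2 fold change was 0.63 against each control (SE 0.07, edgeR adjusted p = 3.4e-06 against the 4OHT control and 6.9e-06 against the ethanol control).

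Prpf8, the scaffold of the catalytic centre and the protein that Aar2 binds, had 1616, 1434 and 1510 CPM in labelled KO, 1463, 1426 and 1442 CPM in the 4OHT control and 1418, 1422 and 1292 CPM in the ethanol control. The labelled KO libraries overlapped the 4OHT control and lay above the ethanol control. Its log2 fold change was 0.14 against the ethanol control (SE 0.05, edgeR adjusted p = 0.054) and was called under the replicate block (0.0014), library totals (0.0077), a filter of 1 CPM (0.040) and without labelled KO replicate 2 (0.033). Against the 4OHT control it was 0.07 (edgeR adjusted p = 0.28, or 0.028 with library totals). Eftud2, the GTPase of U5, had 482, 516 and 497 CPM in labelled KO, 507, 526 and 514 CPM in the 4OHT control and 493, 525 and 522 CPM in the ethanol control. These ranges overlap, and its log2 fold changes of -0.05 against the 4OHT control (edgeR adjusted p = 0.43) and -0.04 against the ethanol control (edgeR adjusted p = 0.53) became positive with library totals, at 0.03 each.

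Prpf3, a U4/U6 protein, had 129, 127 and 120 CPM in labelled KO, 93.9, 102 and 95.5 CPM in the 4OHT control and 104, 107 and 98.6 CPM in the ethanol control. It stood above all control libraries, with log2 fold changes of 0.37 against the 4OHT control (edgeR adjusted p = 7e-05) and 0.28 against the ethanol control (edgeR adjusted p = 0.0015). Txnl4a, a small U5 protein with a thioredoxin fold, had 56.1, 60.9 and 53.9 CPM in labelled KO, 44.4, 45.8 and 47.4 CPM in the 4OHT control and 48.9, 50.9 and 50.9 CPM in the ethanol control. It did not overlap the controls and rose by 0.31 on the log2 scale against the 4OHT control (edgeR adjusted p = 8e-04). The rise of 0.18 against the ethanol control (edgeR adjusted p = 0.036) was called in 8 of 16 alternatives. The call was lost without any of the ethanol control libraries, without labelled KO replicate 1 or 2 or without 4OHT control replicate 2, at adjusted p of up to 0.19. It was also lost with DESeq2 (0.12) and with no filter on low counts (0.077). Of the 50-base stretches of Txnl4a 12.6% recur in other genes, most of them in Gm16286. Summed over the 13 U5 and tri-snRNP genes, levels were 4095, 3846 and 3923 CPM in labelled KO, 3540, 3499 and 3473 CPM in the 4OHT control and 3528, 3588 and 3416 CPM in the ethanol control, without overlap, in a sum that Prpf8 and Snrnp200 dominate. The sums of the 7 Sm genes overlapped, at 608 to 688 CPM in labelled KO, 615 to 661 CPM in the 4OHT control and 635 to 673 CPM in the ethanol control.

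Of the 11 genes of the Prp19 complex and its neighbours in the activated spliceosome, 1 rose and 3 fell against the ethanol control, and 3 rose and 2 fell against the 4OHT control. The shares called were 36.4% and 45.5%, beside 27.2% and 38.9% of all genes. Rbm22 rose while Cwc27 and Ppil1 fell against both controls, and Bcas2, a subunit of the complex, fell by 0.23 on the log2 scale against the ethanol control (edgeR adjusted p = 0.0054) and had -0.10 against the 4OHT control (0.14, under the block 0.037). Rbm22, which contacts U6 and the pre-mRNA in the active site, had 62.8, 67.5 and 62.0 CPM in labelled KO, 52.6, 57.4 and 52.4 CPM in the 4OHT control and 45.1, 46.4 and 52.7 CPM in the ethanol control. It was above every control library and rose by 0.24 on the log2 scale against the 4OHT control (edgeR adjusted p = 0.0097) and 0.42 against the ethanol control (edgeR adjusted p = 0.00035). Cwc27, a cyclophilin-type protein of the activated spliceosome, had 18.4, 19.1 and 21.2 CPM in labelled KO, 27.9, 29.9 and 30.4 CPM in the 4OHT control and 25.6, 30.3 and 29.0 CPM in the ethanol control. It lay below both controls without overlap, with log2 fold changes of -0.59 against the 4OHT control (edgeR adjusted p = 4.6e-05) and -0.53 against the ethanol control (edgeR adjusted p = 0.00024). Ppil1, a cyclophilin that acts as a prolyl isomerase in the spliceosome, had 69.9, 77.1 and 68.3 CPM in labelled KO, 82.9, 102 and 95.6 CPM in the 4OHT control and 95, 100 and 101 CPM in the ethanol control. It too did not overlap the controls, with log2 fold changes of -0.38 (edgeR adjusted p = 0.00062) against the 4OHT control and -0.46 (edgeR adjusted p = 0.00023) against the ethanol control. Opposite-strand genes share 152 bases with Cwc27 exons and 188 with Ppil1 exons. Prpf19, the ubiquitin ligase that names the complex, and Cdc5l, its partner, were called against neither control without the block. Under the block Cdc5l was called lower against the 4OHT control, at a log2 fold change of -0.15 (edgeR adjusted p = 0.00044, without the block 0.079).

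Of the 5 genes of the second catalytic step and release, 1 rose against the ethanol control (20%, beside 27.2% of all genes). Against the 4OHT control 1 rose and 1 fell (40%, beside 38.9% of all genes). Slu7, which acts in the choice of the 3′ splice site, had 101, 101 and 97.3 CPM in labelled KO, 75.5, 77.7 and 75.4 CPM in the 4OHT control and 76.4, 83.2 and 77.1 CPM in the ethanol control. All labelled KO libraries were higher than the controls, by 0.39 on the log2 scale against the 4OHT control (edgeR adjusted p = 2.7e-05) and 0.34 against the ethanol control (edgeR adjusted p = 0.00021). The release helicases Dhx8 and Dhx15 were called against neither control without the block, and Dhx8 was called higher against the 4OHT control under it, at 0.08 (edgeR adjusted p = 0.047, without the block 0.25).

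**Figure D3:**
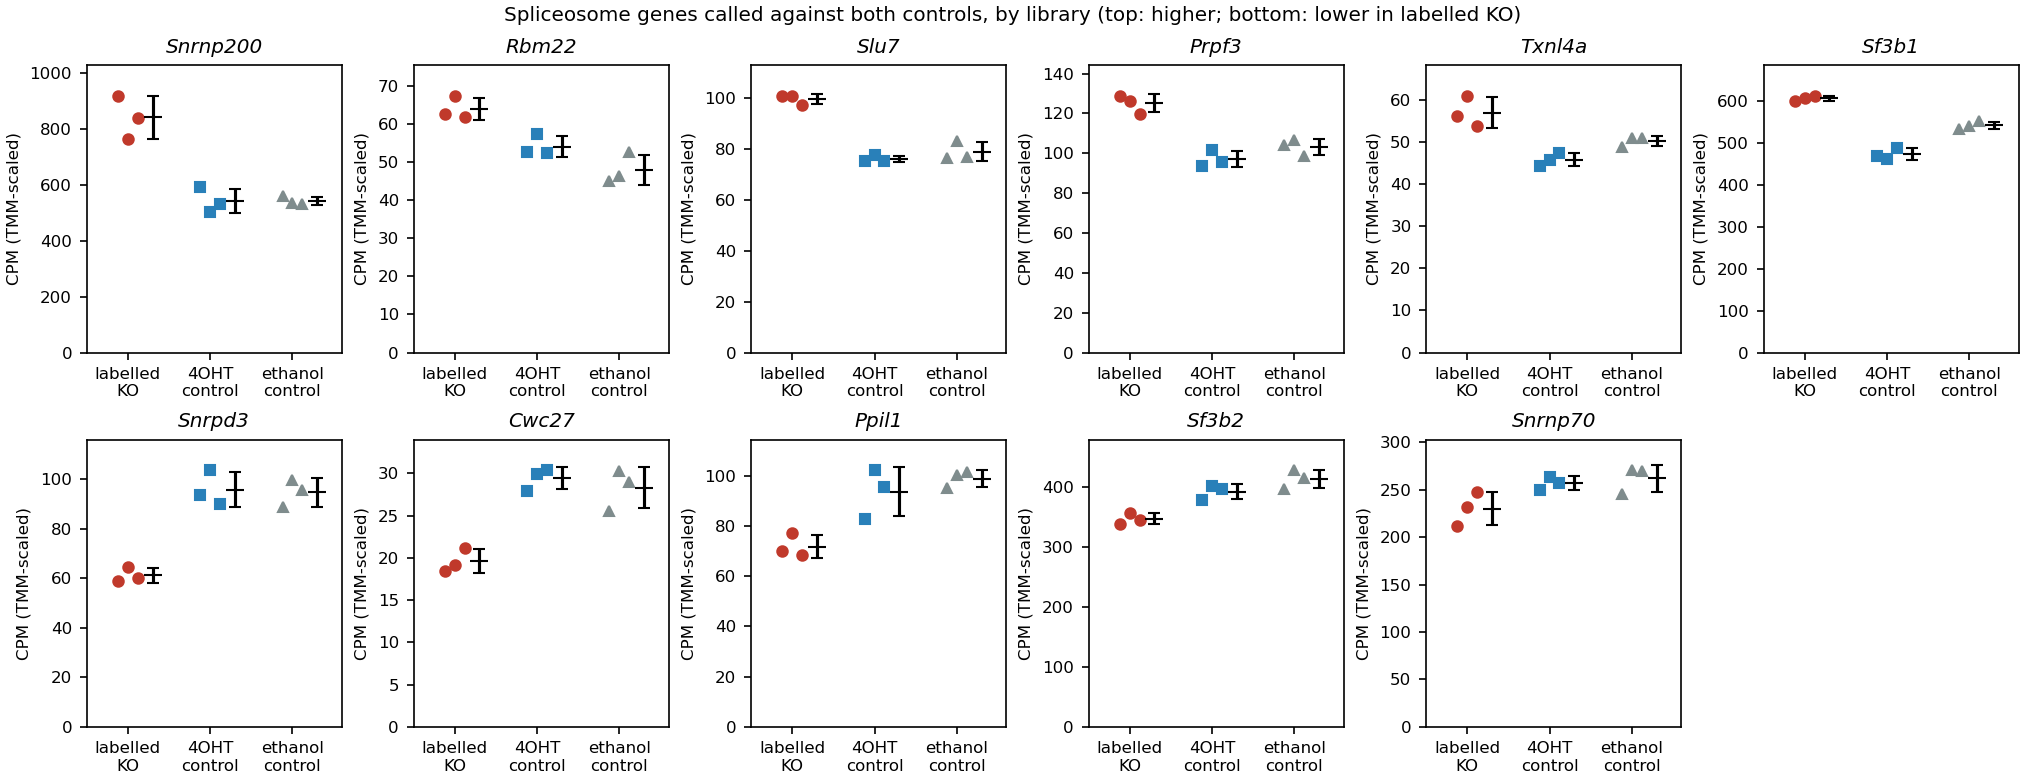
TMM-scaled CPM by library of the 11 genes, besides Aar2 and Nkap, called in the same direction against both controls, with mean and SD of 3 libraries per group (black). The 6 in the top row are higher and the 5 in the bottom row lower in labelled KO, and Snrnp70 is the one whose labelled KO values overlap a control.

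In all, 11 of the 53 were called the same way against both controls, 6 higher and 5 lower. Without the block, 28 of the 55 were called against neither control, and 26 in none of the comparisons. The matching shares over all genes were not counted, and both comparisons use the same labelled KO libraries. These counts therefore describe the list and do not set it apart from other genes.

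The controls also differed from each other at some of these genes. Between the 4OHT control and the ethanol control 2 members rose and 7 fell, or 16.4% of 55, beside 18.4% of all genes (9.66% higher, 8.75% lower), and the replicate block gave 17 calls (5 higher, 12 lower), or 30.9%, beside 32.8% of all genes (17.0% higher, 15.8% lower). Sf3b3, an SF3b subunit, had 673, 690 and 725 CPM in the 4OHT control and 544, 529 and 568 CPM in the ethanol control, a log2 difference of 0.35 (SE 0.05, edgeR adjusted p = 8.8e-05). The labelled KO libraries, at 512, 511 and 527 CPM, were near the ethanol control and below the 4OHT control. Dhx38, the helicase that remodels the spliceosome between the catalytic steps, had 139, 144 and 138 CPM in the 4OHT control and 111, 117 and 107 CPM in the ethanol control, a log2 difference of 0.33 (edgeR adjusted p = 0.00035). Its labelled KO values of 119, 123 and 116 CPM were closer to the ethanol control.

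Ddx23, the helicase that releases U1, had 118, 131 and 125 CPM in the 4OHT control and 154, 170 and 169 CPM in the ethanol control, a log2 difference of -0.40 (SE 0.06, edgeR adjusted p = 0.00014). Snrnp40, a U5 protein with WD repeats, had 96.8, 105 and 100 CPM in the 4OHT control and 121, 131 and 129 CPM in the ethanol control, a log2 difference of -0.33 (edgeR adjusted p = 0.00034). The labelled KO values were 148, 160 and 153 CPM for Ddx23, near the ethanol control, and 108, 111 and 108 CPM for Snrnp40, between the controls. Thus labelled KO against the 4OHT control gave log2 fold changes of -0.43 for Sf3b3 (edgeR adjusted p = 3.3e-06), -0.23 for Dhx38 (0.0022), 0.30 for Ddx23 (0.00062) and 0.11 for Snrnp40 (0.12, under the block 0.021, under library totals 0.0069). Against the ethanol control the values were -0.08 for Sf3b3 (edgeR adjusted p = 0.20, under the block 0.029), 0.10 for Dhx38 (0.19, under the block 0.044, under library totals 0.024), -0.10 for Ddx23 (0.22, under the block 0.035) and -0.23 for Snrnp40 (0.0049).

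Levels between genes were compared as CPM per kb of exon. The length joins all annotated exons of a gene and is not that of the mRNA expressed, so ranks depend on the annotation. By CPM alone Snrpd3, with 3.44 kb, averaged 94.6 in the ethanol control, above Snrpf, with 0.861 kb, at 37.3. Prpf8 had the highest level in each group, at 204 CPM per kb in labelled KO, 193 in the 4OHT control and 185 in the ethanol control. The median member stood at 32.5 CPM per kb in labelled KO, 31.7 in the 4OHT control and 34.4 in the ethanol control. Aar2 stood at 0.564 CPM per kb in labelled KO, 12 in the 4OHT control and 10.9 in the ethanol control, and Nkap at 0.486 in labelled KO, 7.07 in the 4OHT control and 6.57 in the ethanol control. In labelled KO Nkap was the lowest of the 55, whereas in the 4OHT control and the ethanol control the lowest was Prpf39, a U1-associated protein, at 3.43 and 3.17 CPM per kb. Within the Sm ring Snrpb was highest, at 85.5, 82.8 and 79.7 CPM per kb in labelled KO, the 4OHT control and the ethanol control, and Snrpd3 lowest, at 17.8 in labelled KO, 27.8 in the 4OHT control and 27.5 in the ethanol control. The highest U1 gene was Snrpa, at 43.5 CPM per kb in labelled KO, 47.6 in the 4OHT control and 49.8 in the ethanol control, and the lowest was Prpf39 in each group. In the U2 group Sf3a1 stood at 70.2 CPM per kb in labelled KO, 67.9 in the 4OHT control and 74.7 in the ethanol control, and Sf3b5 was lowest, at 15.7 CPM per kb in labelled KO, 15.3 in the 4OHT control and 15.2 in the ethanol control, and Txnl4a was lowest of the U5 and tri-snRNP genes. Among Prp19 complex genes Cdc5l was highest, at 86.7 CPM per kb in labelled KO, 96.4 in the 4OHT control and 86.3 in the ethanol control, and Cwc27 lowest, at 6.81 in labelled KO, 10.2 in the 4OHT control and 9.84 in the ethanol control. Among genes of the second step Dhx8 was highest, at 52.5 CPM per kb in labelled KO, 49.6 in the 4OHT control and 52.2 in the ethanol control, and Cdc40 was lowest, at 3.99 in labelled KO, 3.96 in the 4OHT control and 3.98 in the ethanol control. The coefficient of variation over 3 libraries was 47.4% for Aar2 in labelled KO, where it rests on few reads, beside medians over the 55 of 5.01% in labelled KO, 4.04% in the 4OHT control and 3.57% in the ethanol control. Of the 55, 33 share at least one 50-base stretch with another gene and 8 share over 10%, with Sf3b4 at 43.6% and Cdc5l at 34.8% the highest. Their counts depend on how such reads were placed. Exons of 17 of the 55 overlap a gene on the opposite strand, among them Snrpa (327 bases), Sf3b2 (194), Sf3b3 (188) and Eftud2 (2261). Reads there cannot be assigned without a stated strand setting.

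**Figure D4:**
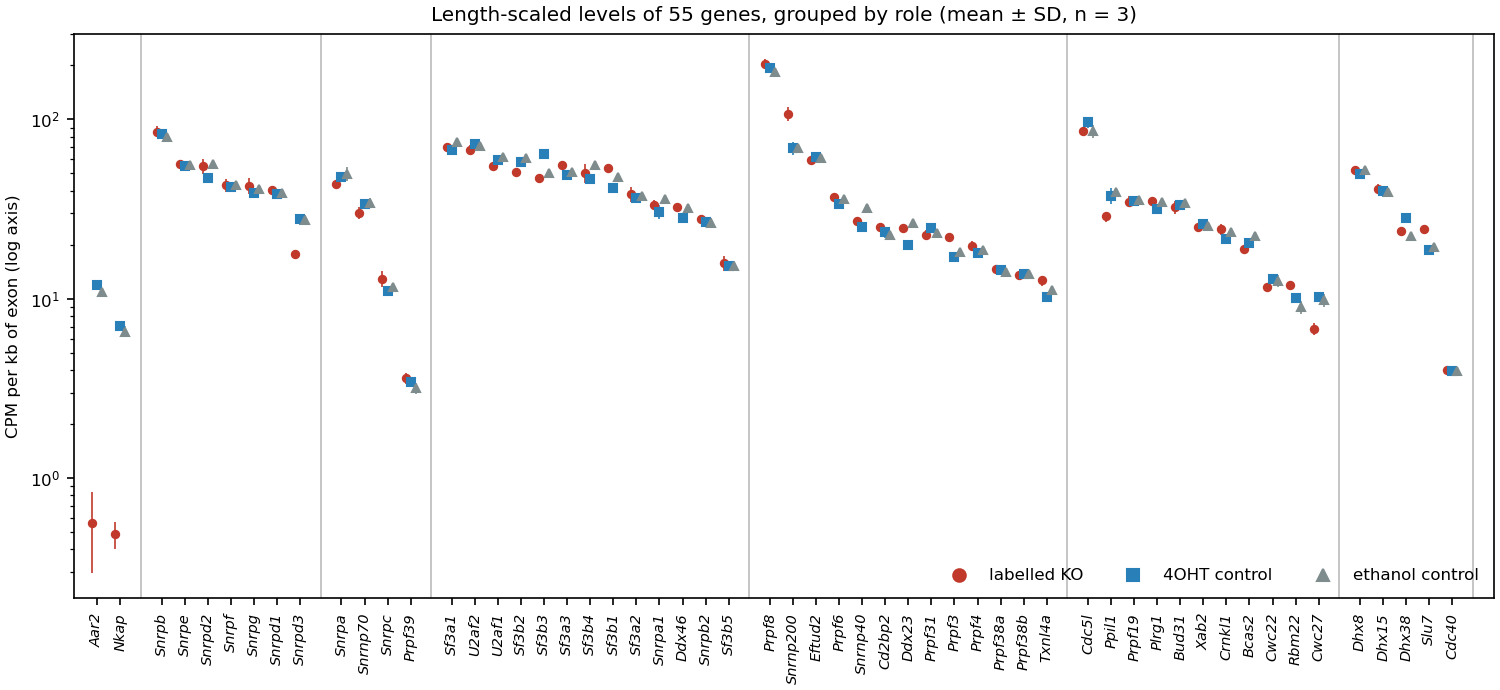
CPM per kb of exon (log axis) of the 55 genes, grouped by role and ordered by level, as mean and SD of 3 libraries per group. Aar2 and Nkap in labelled KO, at 0.564 and 0.486 CPM per kb, lie below every other point.

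Another 152 genes of splicing that are not members, in 8 lists, gave 48 calls against the ethanol control (23 higher, 25 lower). This was 31.6%, beside 27.2% of all genes. Against the 4OHT control 66 were called (31 higher, 35 lower), or 43.4%, beside 38.9% of all genes. With library totals the split was 37 higher and 13 lower against the ethanol control, where all genes had 18.7% higher and 9.41% lower. Against the 4OHT control it was 50 higher and 17 lower, where all genes had 26.0% higher and 14.3% lower. The count against the ethanol control was 79 with the replicate block (52.0%, beside 42.8% of all genes), and 31 both without ethanol control replicate 2 and without labelled KO replicate 1. Between the 4OHT control and the ethanol control 30 were called (12 higher, 18 lower), or 19.7%, beside 18.4% of all genes. With the block 50 were called (32.9%, beside 32.8% of all genes). The count was 16 without ethanol control replicate 2 and 18 without 4OHT control replicate 1.

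Of 14 proteins of the minor spliceosome, which removes the rare U12-type introns, 7 rose and 1 fell against the ethanol control (median log2 fold change 0.19) and 9 rose and none fell against the 4OHT control (median 0.31). These calls were 57.1% and 64.3% of the list, beside 27.2% and 38.9% of all genes. Without labelled KO replicate 1, 4 rose and 1 fell against the ethanol control. Txnl4b, a relative of Txnl4a, had 12.9, 13.0 and 11.4 CPM in labelled KO, 8.11, 7.64 and 7.68 CPM in the 4OHT control and 5.14, 7.04 and 5.26 CPM in the ethanol control. The labelled KO libraries were above both controls, with log2 fold changes of 0.67 (edgeR adjusted p = 0.00052) against the 4OHT control and 1.09 (SE 0.13, edgeR adjusted p = 1.4e-05) against the ethanol control. Armc7 rose by 0.52 on the log2 scale against the ethanol control (edgeR adjusted p = 0.011, or 0.061 without labelled KO replicate 1).

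Of 26 factors that assemble and move snRNPs, 6 fell and none rose against the ethanol control (23.1%, beside 27.2% of all genes), or 3 without ethanol control replicate 2, 3 with library totals and 10 with the block. In the comparison with the 4OHT control 2 rose and 8 fell (38.5%, beside 38.9% of all genes). Gemin7 and Gemin2 belong to the SMN complex, which loads the Sm ring onto small nuclear RNAs. Gemin7 had 19.6, 15.7 and 14.1 CPM in labelled KO, 25.6, 24.3 and 24.5 CPM in the 4OHT control and 32.0, 30.5 and 29.8 CPM in the ethanol control, with log2 fold changes of -0.59 against the 4OHT control (edgeR adjusted p = 0.00026) and -0.90 against the ethanol control (SE 0.10, edgeR adjusted p = 7.1e-06). Gemin2 had 22.5, 20.6 and 20.0 CPM in labelled KO, 27.1, 29.3 and 30.2 CPM in the 4OHT control and 31.5, 30.4 and 30.0 CPM in the ethanol control, and fell by 0.45 on the log2 scale against the 4OHT control (edgeR adjusted p = 0.00019) and by 0.54 against the ethanol control (edgeR adjusted p = 6.6e-05). For both, the labelled KO libraries lay below all control libraries. Gemin7 exons overlap Zfp296 on the opposite strand by 263 bases.

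The other lists held calls in both directions or few calls against the ethanol control. Their shares called ran from 20% to 38.9% there, beside 27.2% of all genes. Against the 4OHT control they ran from 20% to 69.2%, beside 38.9% of all genes. Counts in this paragraph are against the ethanol control unless stated. Of 15 other tri-snRNP and LSm genes 3 rose and none fell, or 1 call without ethanol control replicate 3 or labelled KO replicate 1 and 7 with the block. Among them Lsm6, part of the ring on U6, had a log2 fold change of 0.27 against the ethanol control (edgeR adjusted p = 0.012, or 0.051 without ethanol control replicate 3 and 0.066 without labelled KO replicate 2) and -0.20 against the 4OHT control (edgeR adjusted p = 0.043). Prpf18, a factor of the second step, rose by 0.24 against the ethanol control (edgeR adjusted p = 0.010, or 0.051 without ethanol control replicate 1 and 0.077 without labelled KO replicate 1). Of 13 other U2 and branch site genes 1 rose and 4 fell (9 calls with the block), with Dnajc8 at -0.26 (edgeR adjusted p = 0.0059) and U2surp at -0.24 (0.0018). In this list 2 rose and 7 fell against the 4OHT control (69.2%, median log2 fold change -0.15), the largest share of the lists. Of 30 genes related to the Prp19 complex and catalysis 3 rose and 6 fell (16 calls with the block), among them Ppil3, a cyclophilin, at -0.46 (edgeR adjusted p = 0.0025). Rnf113a1 stood at -0.43 (edgeR adjusted p = 0.030), a call lost without any of the labelled KO libraries or without ethanol control replicate 2 or 3 (0.055 to 0.099). The Rnf113a1 call was also lost with DESeq2 (0.055) and with library totals (0.067). Of 10 exon junction complex genes 3 rose, or 1 when any library except ethanol control replicate 3 and labelled KO replicate 2 was left out, and 1 with relative log expression size factors, DESeq2, no filter or a fit of the groups compared alone. In the comparison with the 4OHT control 3 rose and 2 fell. Acin1 rose by 0.26 (edgeR adjusted p = 0.00053), and the rise of Rnps1 by 0.17 (edgeR adjusted p = 0.048) was lost without any library except ethanol control replicate 3 (0.056 to 0.23). The Rnps1 call was also lost with relative log expression size factors (0.066), DESeq2 (0.15), no filter (0.064) and a fit of the groups compared alone (0.062). Of 18 SR proteins and their kinases 3 rose and 4 fell, or 4 calls without ethanol control replicate 2 or labelled KO replicate 1, with Srsf6 at -0.35 (edgeR adjusted p = 0.00016) and Srpk2 at -0.28 (0.0064). Of 26 hnRNP genes 3 rose and 4 fell, or 4 calls without ethanol control replicate 2 or 3 and 15 with the block, with Hnrnpll at -0.27 (edgeR adjusted p = 0.0012) and Hnrnpdl at 0.24 (0.0091, or 0.052 without labelled KO replicate 2). Exons of Acin1, Ppil3 and Srpk2 overlap genes on the opposite strand, so their counts are uncertain.

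Reads assigned to no counted feature made up 33.8%, 32.7% and 33.4% of the reads in the labelled KO files, 26.7%, 27.0% and 27.5% in the 4OHT control and 28.7%, 26.4% and 28.1% in the ethanol control. Every labelled KO library was above every control library. The difference was 6.23 percentage points against the 4OHT control and 5.58 against the ethanol control, each with an exact two-sided permutation p of 0.1, the smallest that 3 libraries against 3 allow. Where those reads lay, in introns or elsewhere, was not tested.

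**Figure D5:**
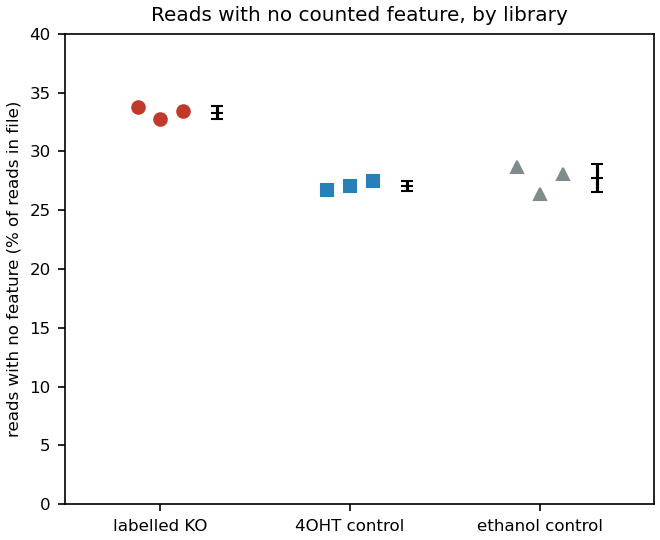
Share of reads assigned to no counted feature in each library, in percent of the reads in its file, with mean and SD of 3 libraries per group (black). The labelled KO libraries stand at 32.7% to 33.8%, above all control libraries at 26.4% to 28.7%.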

How the data were processed

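RNA-seq of 9 libraries was deposited as 1 file of read counts per gene for each library, not normalized. The submitters' processing notes name cutadapt, STAR, HTSeq, edgeR and the build mm9 without roles. The sources used here do not give the strand setting. The authors' closing rows, which name no gene, held 26.4% to 33.8% of reads as without a feature and 0.780% to 0.908% as ambiguous, and were left out of library sizes. Gene names and exon lengths came from the GENCODE annotation of GRCm38, another build. The exon overlaps and the stretches shared between genes were also taken from that annotation. They may therefore differ from those in the annotation used for counting.

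Counts were tested in R 4.3.3 with edgeR 4.0.16 (filterByExpr, TMM, glmQLFit and glmQLFTest over all 3 groups, 6 residual degrees of freedom), tested on simulated data first. Alternatives were DESeq2 1.42.0, other scalings and filters, a replicate block, a fit of the groups compared alone and leaving out each library. Same-numbered libraries deviated together, with a correlation of 0.19 to 0.43 in 9 of 9 pairs across groups. For 18 pairs of unlike number it was -0.34 to -0.04. A block for the number was therefore fitted as an alternative. The labels give the replicate numbers but do not say what libraries of the same number shared. Values with the block are printed beside a described comparison where they change its call.

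The members and lists were chosen with earlier results of these data known. Named members are Aar2, Nkap, those called the same way against both controls, the main U5 proteins and the 4 with the greatest difference between controls. Up to 2 called genes are named per other list, with U1 and U2 extras chosen after their values were seen. Motif and neighbour checks used RefSeq tables of GRCm38.p6.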

Additional observations from a re-analysis of the deposited data

Results flagged for a closer look

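The share of reads assigned to no counted feature lies outside the gene counts and was higher in the labelled KO libraries, at 33.3% ± 0.531, than in the 4OHT control, at 27.1% ± 0.414, and the ethanol control, at 27.7% ± 1.18 (SD, n = 3 each). The difference stayed between 6.0 and 6.52 percentage points against the 4OHT control and between 4.93 and 6.06 against the ethanol control when each library was left out in turn.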

How the results depend on the processing

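Against the ethanol control Aar2 and Nkap kept their direction in all 16 alternatives. Their log2 fold changes there lay between -4.67 and -4.01 for Aar2 and between -3.87 and -3.64 for Nkap. They were chosen for their falls, so this is a description and not a test. Both genes are among the members counted below. The replicate block raised the calls to 30 members against the ethanol control, 35 against the 4OHT control and 17 between controls, to 79 and 50 other splicing genes (labelled KO against the ethanol control, and between controls) and to 6936 and 5323 of all genes in those comparisons. Leaving out each library gave 12 to 18, 18 to 23 and 7 to 11 members in the 3 comparisons, 31 to 48 other splicing genes against the ethanol control and 16 to 30 between controls, and 3067 to 4559 and 1974 to 3069 of all genes (1974 without ethanol control replicate 2). Scaling by library totals turned all genes called against the ethanol control to 3038 higher and 1527 lower, with the median shifted by under 0.1 on the log2 scale. Directions of uncalled genes reversed for Eftud2 (0.027 against the ethanol control and 0.033 against the 4OHT control) and Dlgap4 (0.029) with library totals, for Epb41l1 when libraries were left out (-0.18 to 0.058, positive without ethanol control replicate 1) and for Upf3b (-0.012 to 0.16, negative without ethanol control replicate 1 or labelled KO replicate 2). The cause of these changes was not tested. Counts of 22 to 63 reads limit the precision of Aar2 and Nkap in labelled KO.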

Other observations

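Genes for small nuclear RNAs were looked at after the counts had been seen, and their reads were few. Rnu12, the U12 RNA of the minor spliceosome, had 38, 21 and 19 reads in labelled KO, 14, 8 and 17 in the 4OHT control and 9, 13 and 8 in the ethanol control. Its log2 fold change was 1.32 against the ethanol control (SE 0.32, edgeR adjusted p = 0.0063) and 0.88 against the 4OHT control (edgeR adjusted p = 0.030, or 0.18 without labelled KO replicate 1, 0.066 without 4OHT control replicate 1, 0.11 without 4OHT control replicate 2 and 0.14 with DESeq2). Rnu11, the U11 RNA, had 29, 11 and 17 reads in labelled KO, 10, 6 and 9 in the 4OHT control and 7, 6 and 7 in the ethanol control. Its log2 fold change was 1.44 against the ethanol control (SE 0.38, edgeR adjusted p = 0.010, or 0.075 without labelled KO replicate 1, 0.056 without ethanol control replicate 2 and 0.052 with DESeq2). Against the 4OHT control it was 1.07 (edgeR adjusted p = 0.028). That call was lost without labelled KO replicate 1 or 3 or 4OHT control replicate 2 or 3 (0.053 to 0.18). It was also lost with DESeq2 (adjusted p = 0.14). Rnu2-10, a U2 gene, had 37, 24 and 30 reads in labelled KO, 26, 11 and 11 in the 4OHT control and 15, 6 and 3 in the ethanol control. Its log2 fold change was 1.87 against the ethanol control (SE 0.41, edgeR adjusted p = 0.0031) and 0.82 against the 4OHT control (edgeR adjusted p = 0.082, under the block 0.015, with no filter 0.031 and 0.018 without 4OHT control replicate 1), where the groups overlap. Such RNAs have no poly(A) tail, and how they entered these libraries was not tested.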
